A study of Bos taurus with 18 samples.

Results

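The genes that copy DNA and the genes that carry a cell through mitosis were followed in clonal populations of bovine mesenchymal stem cells (MSCs). They were taken as a fixed list of 35 symbols, 15 for replication (MCM2, MCM3, MCM4, MCM5, MCM6, MCM7, PCNA, RRM1, RRM2, TYMS, CDC6, CDC45, GINS2, RFC4 and FEN1) and 20 for mitosis (MKI67, TOP2A, CDK1, CCNA2, CCNB1, CCNB2, BUB1, BUB1B, AURKA, AURKB, PLK1, CDC20, KIF11, KIF23, TPX2, CENPF, BIRC5, NUSAP1, TTK and UBE2C). All 35 symbols were among the 16989 genes counted. BUB1B, a spindle checkpoint kinase, had 0 reads in every library, so 34 genes carried values.

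The study asked whether the transcriptome of undifferentiated MSCs marks the clones that later make cartilage-like matrix. Each of 17 clones, lettered A to Q, grew from a single MSC of juvenile bovine bone marrow, and poly(A) RNA was taken from monolayers on plastic in DMEM with FBS and antibiotics, with no chondrogenic induction, at the first passage. An eighteenth library came from a heterogeneous population of uncloned MSCs grown in the same basal medium. Each clone and the mixed population were sequenced once, and the labels name no separate donors or cultures, so every p-value below measures only the spread between these libraries.

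A cell licenses its DNA for copying by loading the MCM ring at origins, then unwinds and copies it during S phase with the sliding clamp PCNA and a supply of deoxynucleotides. Cyclins with CDK1, the Aurora and Polo kinases and a spindle of microtubules then separate the copies, and the anaphase-promoting complex ends mitosis by having its targets destroyed. Transcripts of both sets are known to rise in dividing cells, replication genes before mitosis genes, and to fall when cells leave the cycle. In bulk RNA, fewer dividing cells and less RNA per dividing cell cannot be told apart.

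Between 11484812 and 18458157 reads fell on genes in each clone and 16092501 in the heterogeneous population. Levels are given as CPM, the reads of a gene scaled to an equal total of reads on genes in each library, in which 3 reads corresponded to between 0.163 and 0.261 CPM in the clones. CPM is not divided by transcript length. Levels were therefore compared between libraries, for 1 gene or for the sum over a marker list, and never between genes. The fibroblast-like identity of the cells was checked with 13 mesenchymal markers, all of which had reads and which together summed to 68581 to 232790 CPM in the clones and 224240 CPM in the heterogeneous population. Of 10 endothelial markers, 7 had reads, with sums of 15.8 to 88.5 CPM in the clones and 25.3 CPM in the heterogeneous population, while CDH5, CLDN5 and ESAM had none in any library. In the heterogeneous population 20 macrophage markers summed to 257 CPM against 4.44 to 30.4 CPM in the clones, and all 19 of them with reads were above every clone. COL1A1, the main collagen of fibroblasts, took 10.75% of the reads on genes there, against at most 9.27% in a clone. MARCO was the macrophage marker without reads.

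Replication and mitosis genes varied more between clones than most genes did. The SD over the 17 clones, on the log2(CPM + 0.25) scale, had a median of 1.06 over the 15 replication genes and 1.31 over the 19 mitosis genes, against 0.35 over the 11477 genes with a CPM above 1 in some clone. It reached 1 log2 unit in 9 of 15 replication genes and 18 of 19 mitosis genes, where 6.95% of all 11477 genes reached it. AURKB was the mitosis gene below that mark, at 0.91. For every one of the 34 genes this spread was between 4.6 times (RFC4) and 36.4 times (MKI67) the SD that read counting alone would give.

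**Figure D1:**
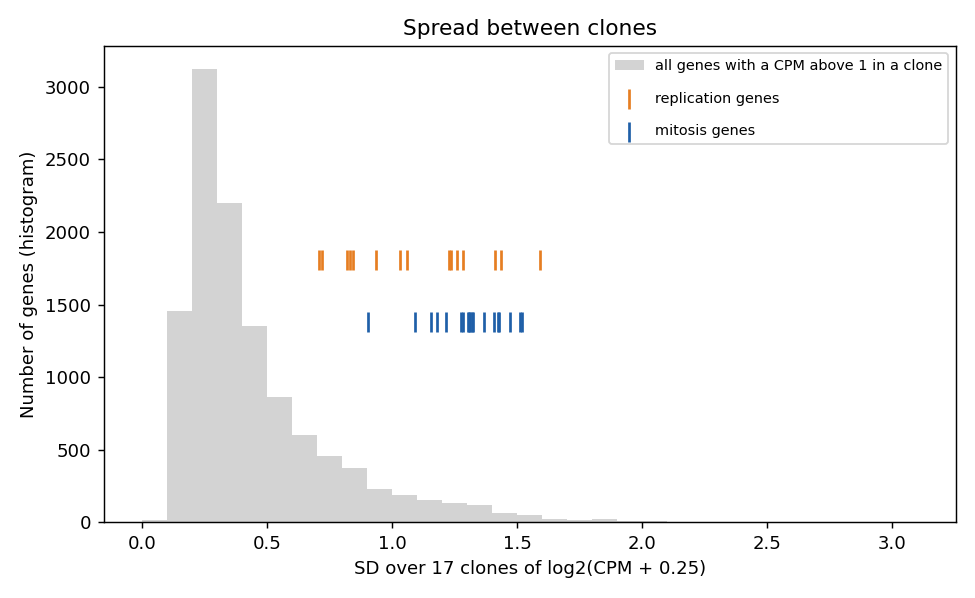
Histogram of the SD over 17 clones of log2(CPM + 0.25) for 11477 genes, in grey, with the number of genes on the vertical axis; coloured ticks mark the SDs of the 15 replication and 19 mitosis genes, and their height has no meaning. Every tick lies to the right of the bulk of the histogram, from 0.71 for RFC4 to 1.59 for RRM2.

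One pattern across the clones ran through both sets. Clones C, G, L and O had the highest levels of all 15 replication genes and all 19 mitosis genes, with no overlap with the other 13 clones, whereas 11.5% of all 11477 genes placed these clones on top. The 4 clones were singled out because the mean of the replication genes left its widest gap below them, so these counts describe how they were chosen and were not tested. At the other end, clone M was the lowest clone for 12 of 15 replication genes and for 19 of 19 mitosis genes. How often clone M was lowest over all 11477 genes was not counted, so these counts have no share to be read against. Clones E and F were the lowest for the other 3 replication genes, E for RFC4 and F for MCM7 and FEN1.

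**Figure D2:**
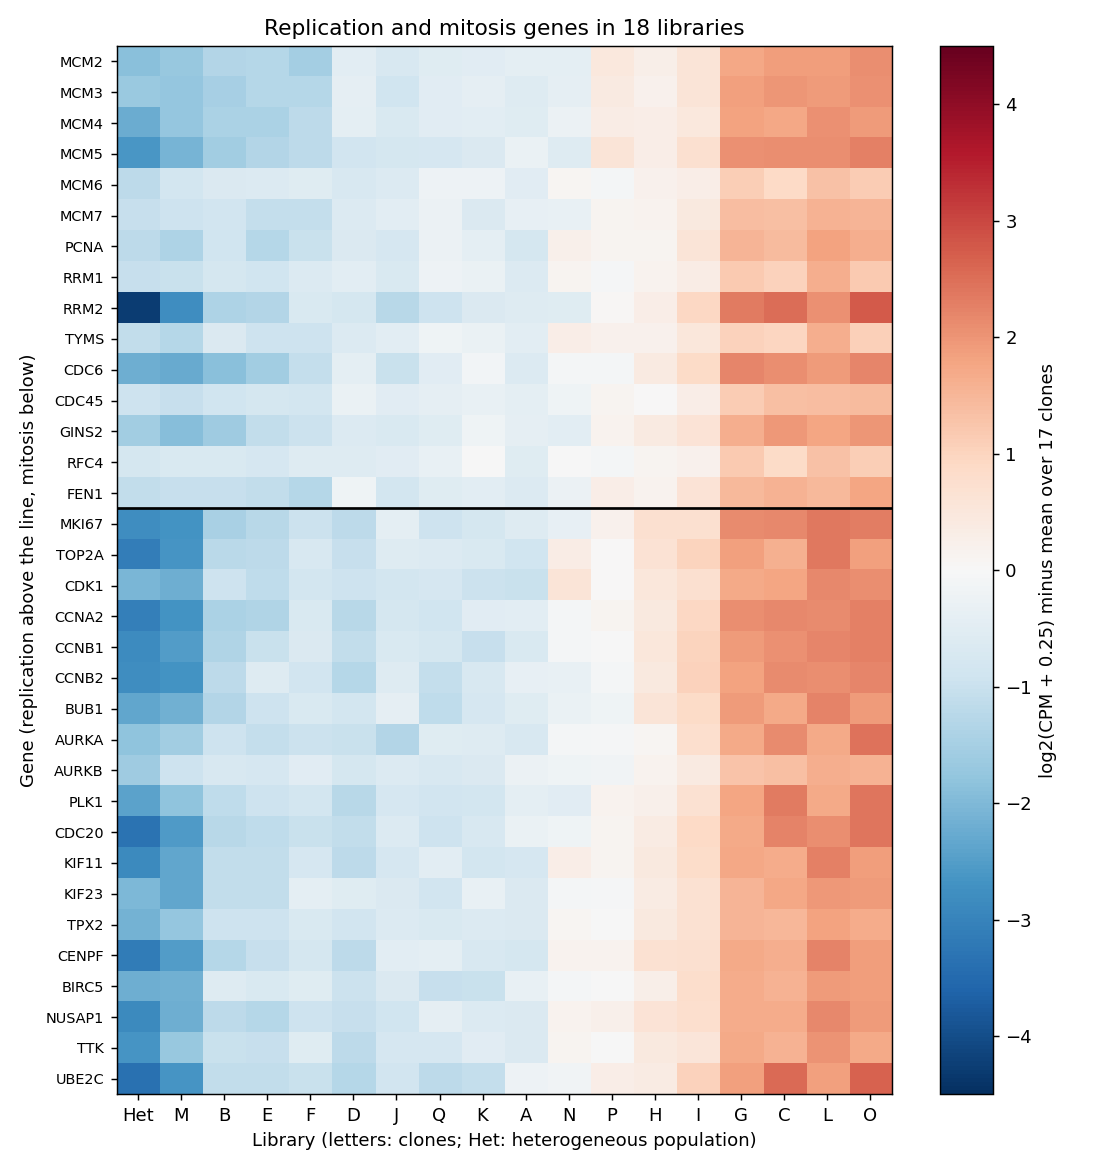
Log2(CPM + 0.25) minus the mean over the 17 clones for 34 genes (rows) in 18 libraries (columns, ordered by the sum of the replication and mitosis means); red is above and blue below the clone mean. The 4 columns at the right, G, C, L and O, are red in all rows, and the 2 at the left, Het (the heterogeneous population) and clone M, are blue in all rows.

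The helicase loaded at origins showed the pattern in each of its subunits. MCM2 was at 19.02 CPM in clone M, at a median of 45.7 CPM over the 17 clones and at 266 CPM in clone O, and the heterogeneous population had 16.7 CPM. MCM5 ran from 9.21 CPM in clone M over a median of 27.0 CPM to 195 CPM in clone O, with 6.46 CPM in the heterogeneous population. MCM6 had a narrower range, from 34.3 CPM in clone M over a median of 52.8 CPM to 153 CPM in clone L, with 27.0 CPM in the heterogeneous population. In all 3 genes clones C, G, L and O lay above the rest and the heterogeneous population below every clone. The fold between highest and lowest clone was 14.2 for MCM3, 13.9 for MCM4 and 6.26 for MCM7, so members of 1 complex differed in range, and MCM6 and MCM7 had the smallest SDs of the 6, at 0.72 and 0.93 log2 units.

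Of the factors that load and start the helicase, CDC6 and GINS2 covered a wide span at low counts, and CDC45 a narrower one. CDC6, which loads the MCM ring, was at 0.704 CPM (13 reads) in clone M, at a median of 3.99 CPM and at 21.1 CPM in clone G, with 0.746 CPM (12 reads) in the heterogeneous population. It was the replication gene with the second largest SD, at 1.44 log2 units. CDC45 and GINS2, both parts of the active helicase, spanned 5.70-fold and 17.3-fold between their lowest and highest clones, and both were highest in clone O. For CDC6, CDC45 and GINS2 the heterogeneous population lay above clone M, the lowest clone.

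Among the genes of DNA synthesis itself, PCNA, the sliding clamp, was at 14.6 CPM in clone M, at a median of 32.5 CPM and at 137 CPM in clone L, with 17.0 CPM in the heterogeneous population. RFC4, a subunit of the clamp loader, had the smallest SD of the 34 genes. It ran from 3.94 CPM in clone E over a median of 6.47 CPM to 17.2 CPM in clone L, and the heterogeneous population had 3.85 CPM. FEN1, the flap nuclease that trims Okazaki fragments, spanned 8.72-fold. The highest 4 clones were C, G, L and O for each of these genes, and only RFC4 was lower in the heterogeneous population than in every clone.

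The nucleotide-supply genes differed most among themselves. RRM2, the small subunit of ribonucleotide reductase, had the largest range of the 34 genes, 48.0-fold, from 10.7 CPM in clone M over a median of 51.0 CPM to 515 CPM in clone O. The heterogeneous population had 3.67 CPM of RRM2 (59 reads), 0.0719 times the clone median. RRM1, the large subunit of the same enzyme, spanned 6.23-fold, from 36.4 CPM in clone M over a median of 61.8 CPM to 226 CPM in clone L, with 35.4 CPM in the heterogeneous population. The catalytic partner was therefore far less spread, with an SD of 0.82 log2 units against 1.59 for RRM2. TYMS, thymidylate synthase, was at 15.5 CPM in clone M, at a median of 33.6 CPM and at 119 CPM in clone L, and the 17.4 CPM of the heterogeneous population lay within the range of the clones.

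**Figure D3:**
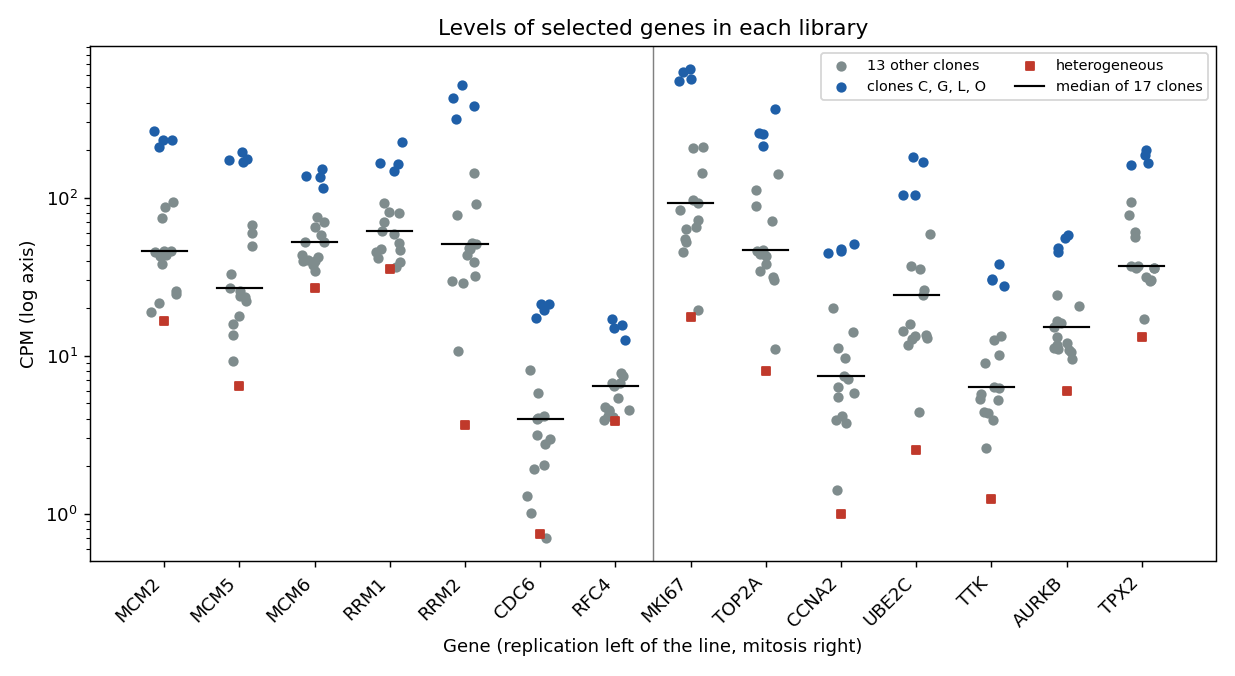
CPM on a log axis for 14 genes in 18 libraries; each point is 1 library, blue for clones C, G, L and O, grey for the 13 other clones, red squares for the heterogeneous population, and the bar is the median of the 17 clones. Blue points lie above all grey points for every gene, and the red square lies below all clones for 13 of the 14, CDC6 being the exception. The 14 are a selection. Over the full sets the heterogeneous population lay below every clone for 7 of 15 replication and 17 of 19 mitosis genes, against 10.9% of 11878 genes.

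The SDs of the mitosis genes lay between 0.91 (AURKB) and 1.52 (UBE2C), a narrower band than the 0.71 (RFC4) to 1.59 (RRM2) of the replication genes. MKI67, the proliferation antigen of the chromosome surface, was at 19.4 CPM in clone M, at a median of 92.2 CPM and at 650 CPM in clone L, with 17.6 CPM in the heterogeneous population. TOP2A, the topoisomerase that untangles chromosomes, ran from 11.1 CPM in clone M over a median of 47.0 CPM to 365 CPM in clone L, with 7.95 CPM in the heterogeneous population. Both genes spanned about the same fold, 33.5 for MKI67 and 33.0 for TOP2A. Clones H and I followed the 4 highest clones for each, with 207 and 208 CPM of MKI67 and 113 and 141 CPM of TOP2A.

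CDK1, the kinase that drives entry into mitosis, was at 1.79 CPM in clone M (33 reads), at a median of 5.24 CPM and at 41.7 CPM in clone L. The heterogeneous population had 1.99 CPM of CDK1, above clone M, and KIF23 was the other mitosis gene for which it was not below every clone. CCNB1, cyclin B1, the activating partner of CDK1, ran from 2.33 CPM in clone M over a median of 9.04 CPM to 70.4 CPM in clone O, with 1.80 CPM in the heterogeneous population. CCNA2, cyclin A2, which acts in S phase and early mitosis, ran from 1.41 CPM over a median of 7.48 CPM to 51.2 CPM in clone O, with 0.994 CPM in the heterogeneous population. The cyclins thus shared their lowest and highest clones, and CCNB2, cyclin B2, did the same over a 32.5-fold range.

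UBE2C, the ubiquitin-conjugating enzyme of the anaphase-promoting complex, had the widest range of the mitosis genes, 41.5-fold. It was at 4.39 CPM in clone M, at a median of 24.4 CPM and at 182 CPM in clone O, with 2.55 CPM in the heterogeneous population. CDC20, an activator of that complex, spanned 31.5-fold, from 6.66 CPM in clone M to 210 CPM in clone O. TTK, a checkpoint kinase, ran over a narrower range, from 2.60 CPM in clone M over a median of 6.39 CPM to 38.0 CPM in clone L, with 1.24 CPM in the heterogeneous population. BUB1, a second checkpoint kinase, spanned 22.8-fold.

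Of the mitotic kinases, AURKB had the smallest SD of the 19 mitosis genes. The kinase of the chromosomal passenger complex, it was at 9.54 CPM in clone M, at a median of 15.3 CPM and at 57.8 CPM in clone L, with 5.97 CPM in the heterogeneous population. In clone M its deviation from the clone mean was 1.27 log2 units above the average deviation of the mitosis genes, the largest such departure of any mitosis gene in any clone. AURKA, the centrosomal Aurora kinase, and PLK1, the Polo-like kinase, spanned 17.1-fold and 19.4-fold. BIRC5, survivin, which sits in the same complex as AURKB, spanned 18.01-fold.

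The spindle and kinetochore genes shared their lowest and highest clones. TPX2, a spindle assembly factor, ran from 17.1 CPM in clone M over a median of 37.2 CPM to 202 CPM in clone L, with 13.1 CPM in the heterogeneous population. KIF11, the motor that pushes spindle poles apart, spanned 25.6-fold, KIF23, a motor of the midzone, 20.9-fold, NUSAP1, which bundles spindle microtubules, 22.1-fold, and CENPF, a kinetochore protein, 27.3-fold. All 5 were lowest in clone M and highest in clone L.

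The 4 high clones were not alike in every gene, an observation made after their values were seen. PLK1 was at 120 and 127 CPM in clones C and O but at 82.1 and 77.2 CPM in clones G and L, and UBE2C at 167 and 182 CPM in C and O but at 104.7 and 103.5 CPM in G and L. AURKA was likewise at 47.8 and 58.5 CPM in C and O against 35.1 and 35.5 CPM in G and L. TOP2A did not follow this split, with 214 CPM in clone C, 257 in G, 365 in L and 254 in O. Clone L alone led in TYMS, where it had 119 CPM against 74.5, 78.3 and 80.2 CPM in C, G and O. With 1 library per clone, none of these differences within the 4 clones could be tested.

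Each set was then summarised in each library as the mean over its genes of log2(CPM + 0.25) minus the clone mean of that gene, a description with no test. For replication genes this mean was between 1.58 and 1.74 in clones C, G, L and O and between -1.498 (clone M) and 0.54 (clone I) in the other 13. For mitosis genes it was between 1.75 and 2.06 in the 4 clones and between -2.21 (M) and 0.79 (I) in the other 13. Clones I, H and P were the next highest for both, at 0.54, 0.22 and 0.17 for replication and 0.79, 0.44 and 0.05 for mitosis. The heterogeneous population was lowest for both, at -1.65 and -2.60.

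**Figure D4:**
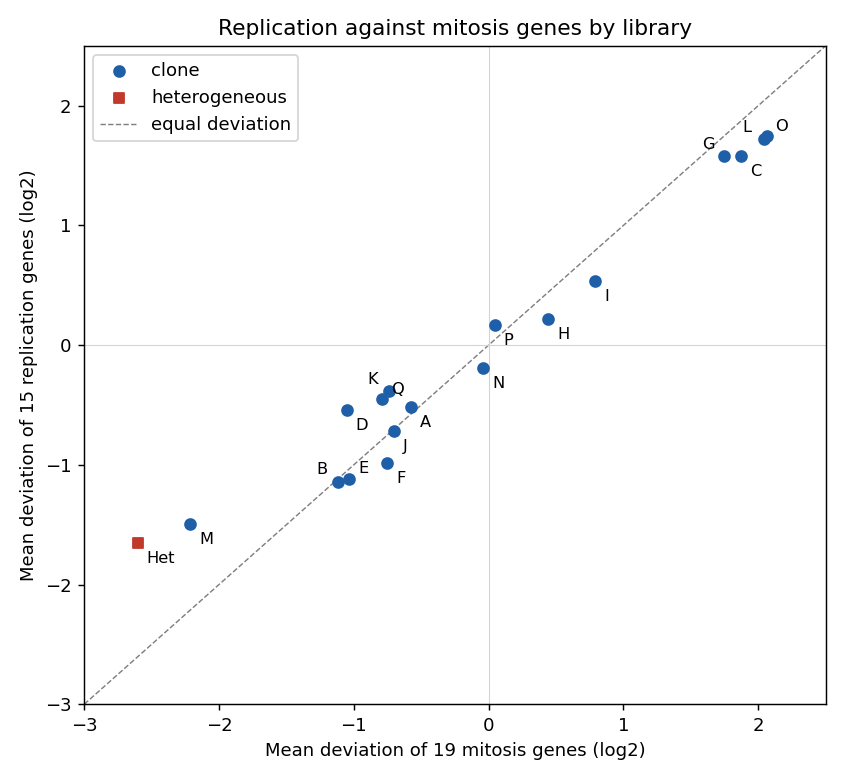
Mean deviation of the 15 replication genes (vertical axis, log2) against that of the 19 mitosis genes (horizontal axis, log2), 1 point per library; the dashed line marks equal deviations. Clones C, G, L and O form a group at the upper right, clone M and the heterogeneous population (Het) lie at the lower left, above the line.

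The sets differed in their deviations in some libraries. The mitosis mean lay further down than the replication mean by 0.95 log2 units in the heterogeneous population, by 0.72 in clone M and by 0.51 in clone D, the largest gaps of the 18 libraries. Clones B, E and F, the lowest after M in replication, had differences of replication minus mitosis of -0.025, -0.085 and -0.23 log2 units, so a low level did not always come with such a gap. In the 4 high clones it lay further up, with differences of replication minus mitosis between -0.32 and -0.17. Among the clones, the largest departure of a replication gene from its set, in either direction, was that of RRM2, which lay 1.29 log2 units under the replication mean in clone M and 1.02 above it in clone O, while RFC4 and MCM6 went the opposite way in clone M, 0.81 and 0.66 above the mean. In the heterogeneous population RRM2 lay 2.62 log2 units under the replication mean.

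Spread among the 13 clones without C, G, L and O was smaller but did not vanish. The median SD over these 13 was 0.61 log2 units for replication and 0.83 for mitosis genes, against 0.31 over all 11477 genes. Library properties of the 4 clones lay mostly within the range of the 13. They had 13443606 to 15727363 reads on genes, within the range of the others, and 20.8 to 24.8% of the counter's reads lay outside annotated genes, against 18.8 to 26.8%. COL1A1 took 3.166 to 5.999% of their reads on genes, against 1.52 to 9.27% in the other 13. Macrophage markers summed to 13.8 to 25.6 CPM in the 4 clones and to 4.44 to 30.4 CPM in the 13. The TMM factors that correct for library composition were 1.04 to 1.16 in the 4 clones and 0.888 to 1.14 in the 13.

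Whether the genes moved together was asked on 10 pairs. Because the 4 high clones formed a group of their own, correlations were computed over the other 13 clones, on the log2 scale, with permutation p-values (two-sided, 100000 permutations, Benjamini-Hochberg adjusted over the 10 pairs). MCM2 and MCM6, partners in the helicase, gave Pearson's r = 0.814 (p = 0.00078, adjusted 0.0013) and Spearman's rho = 0.786 (p = 0.00219, adjusted 0.00365), and r = 0.692 without clones I and M, the 2 farthest from the median of MCM2. PCNA and MCM6 gave r = 0.94 (p = 1e-05, the smallest that these permutations can give, adjusted 3.33e-05) and rho = 0.857 (p = 0.00037, adjusted 0.00123), and r = 0.896 without I and N. RRM2 and TYMS gave r = 0.847 (p = 0.00021, adjusted 0.00042) and rho = 0.83 (p = 0.00074, adjusted 0.00156), and r = 0.709 without I and M. All of the replication pairs therefore kept a positive relation without their extreme clones.

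In mitosis, MKI67 and TOP2A gave r = 0.962 (permutation p = 1e-05, the smallest possible, adjusted 3.33e-05) and rho = 0.956 (p = 1e-05, also the smallest possible, adjusted 0.0001), and r = 0.906 without clones I and M. CDK1 and its cyclin CCNB1 gave r = 0.947 (permutation p = 2e-05, adjusted 5e-05) and rho = 0.83 (p = 0.00078, adjusted 0.00156), and r = 0.961 without I and N. Across the sets, MCM6 and TOP2A gave r = 0.915 (permutation p = 1e-05, the smallest possible, adjusted 3.33e-05) and rho = 0.918 (p = 4e-05, adjusted 0.0002), and r = 0.84 without H and I. The r across the sets thus lay within the range of the pairs inside a set, 0.814 to 0.962.

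Over all pairs of members, as a description across 13 libraries that share depth and scaling within each clone, the median r was 0.911 within replication (0.784 to 0.993), 0.947 within mitosis (0.836 to 0.99) and 0.868 between the sets (0.662 to 0.975). The median over all pairs of 10711 genes was 0.13. RFC4 was the replication gene least like the rest of its set (r = 0.898) and AURKA the mitosis gene least like its own (r = 0.917), again as descriptions.

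CDKN1A, the p21 inhibitor that stops cyclin-dependent kinases, gave no detectable relation with the cycle genes over the 13 clones. It ran from 98.5 CPM in clone G over a median of 175 CPM to 296 CPM in clone P, with 200 CPM in the heterogeneous population. MKI67 and CDKN1A gave r = 0.0136 (permutation p = 0.965, adjusted 0.965) and rho = 0.198 (p = 0.516, adjusted 0.738), and r = 0.29 without I and M. MCM6 and CDKN1A gave r = 0.0917 (permutation p = 0.762, adjusted 0.953) and rho = 0.0934 (p = 0.765, adjusted 0.805), and r = 0.48 without H and I. In the 4 high clones CDKN1A lay between 98.5 and 165 CPM and in the 13 others between 154 and 296 CPM, the groups overlapping in part. Over all 17 clones, as first planned, r was -0.527 for MKI67 (permutation, adjusted p = 0.0361) and -0.55 for MCM6 (permutation, adjusted p = 0.0302), so the call depends on whether the 4 high clones are included.

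ACAN, aggrecan, the cartilage proteoglycan that the study followed, also gave no detectable relation with these genes over the 13 clones. MKI67 and ACAN gave r = 0.0346 (permutation p = 0.909, adjusted 0.965) and rho = 0.0769 (p = 0.805, adjusted 0.805), and r = -0.0106 without I and M. MCM6 and ACAN gave r = 0.182 (permutation p = 0.554, adjusted 0.791) and rho = 0.0824 (p = 0.793, adjusted 0.805). Without clones H and I, the farthest in MCM6, that r was 0.833, and without clone N, which had the highest ACAN, 3032 CPM, it was -0.0348. Clones H and I combined high MCM6, 70.7 and 75.6 CPM, with low ACAN, 19.5 and 42.2 CPM. The high clones themselves spanned 115 to 1437 CPM of ACAN.

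A slope of every gene on ACAN over all 17 clones was fitted with edgeR's quasi-likelihood test, with Benjamini-Hochberg adjustment over 11227 genes. All 15 replication and all 19 mitosis genes had a positive slope, with medians of 0.20 log2 units per log2 unit of ACAN in both sets against 0.01 over all genes tested. None passed an adjusted p of 0.05, where 3.64% of genes passed with a higher and 2.45% with a lower slope. At an unadjusted p under 0.05 stood 1 replication gene, CDC45 (slope 0.17, SE 0.08, p = 0.0484), and 1 mitosis gene, AURKA (slope 0.28, SE 0.12, p = 0.0354). Of all 11227 genes tested, 2590 stood under that mark. The DESeq2 Wald test also called 0 of the 34, with 5 replication and 3 mitosis genes at an unadjusted p under 0.05. By DESeq2 2779 of all 11227 genes stood there. The smallest adjusted p by edgeR was 0.213 for replication and 0.181 for mitosis genes. The unadjusted counts by edgeR depended on single clones. Without clone G, 12 replication and 5 mitosis genes stood under 0.05, as did 2766 of all 11205 genes tested. Without clone O, 0 replication and 0 mitosis genes did, against 2371 of all 11205 genes tested.

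The heterogeneous population had low levels of both sets. It lay below every clone for 7 of 15 replication genes and 17 of 19 mitosis genes, where 10.9% of the 11878 genes tested did so. Its level was 0.0719 (RRM2) to 0.643 (CDC45) times the clone median for replication genes and 0.105 (UBE2C) to 0.391 (AURKA) times for mitosis genes. Without clone M, the lowest clone, the counts would be 11 of 15 and 19 of 19, but the matching share of all genes was not counted. The macrophage markers given above rose in the same library, with 13 of 16 tested passing an adjusted p of 0.05, by the same edgeR test as below, from FCER1G (log2 difference 3.42, adjusted p = 7.62e-06) to CD163 (7.44, adjusted p = 5.79e-06). Their part in the low level of the cycle genes was not tested.

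Tested against the spread of the 17 clones with edgeR's quasi-likelihood test, where the single mixed library is taken to vary as a clone does, 0 of 34 genes passed an adjusted p of 0.05. Of all 11878 genes, 1.21% passed as higher and 0.00842% as lower in the heterogeneous population. All 34 differences were negative, with a median of -1.44 log2 units for replication and -3.37 for mitosis genes, against -0.04 over all genes tested. The model compares with the mean of the clones, which clones C, G, L and O raise, and these differences are therefore larger than those from the clone median, -0.96 and -2.18. Relative to its SE, the difference was largest for RRM2 (-5.07, SE 2.29) among replication genes and for CENPF (-3.61, SE 1.61) among mitosis genes. TTK, TOP2A, NUSAP1 and CDC20 followed CENPF. By DESeq2 the median difference was -1.45 log2 units for replication and -3.38 for mitosis genes.

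Each clone was also set against the other 16 with the same edgeR test, in 17 fits. None of the 578 combinations of a member and a clone passed an adjusted p of 0.05, against 0.045% of the 199937 combinations of any gene and a clone. The genes called lay in the fits of clones M and N only. In the fits of C, G, L and O no gene of any kind was called, so the lack of calls there is not particular to the members. Relative to their SE, the largest differences of members in clone L were those of RRM1 (1.37, SE 0.56) and TYMS (1.37, SE 0.55). In clone O they were those of AURKA (2.09, SE 0.88), PLK1 (2.002, SE 0.94) and FEN1 (1.56, SE 0.74), and in clone M that of TOP2A (-3.12, SE 1.47). A high clone is here compared with a group that holds the other 3 high clones, which widens the spread it is tested against.

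Other genes of the same pathways were taken from lists. Of 53 further replication genes, such as the origin recognition complex, DNA polymerases and E2F factors, 14 had an SD of at least 1 log2 unit (6.95% of all genes), 40 had their highest levels in C, G, L and O (11.5% of all genes), and 24 were lower in the heterogeneous population than in every clone (10.9% of all genes). The largest SDs were those of the E2F repressors E2F7 (1.57) and E2F8 (1.53) and of UHRF1 (1.52), which guides maintenance methylation at the fork. Of the origin recognition genes ORC2, ORC3, ORC4, ORC5 and ORC6 were among the 13 that did not place the 4 clones on top. Of 80 further mitosis genes with reads, the same counts were 58, 74 and 61, to be read against the same shares of all genes. FOXM1 (1.53) and MYBL2 (1.5), transcription factors of the mitotic programme, and HJURP (1.45), the chaperone of the centromeric histone, had the largest SDs.

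The tests called 2 genes of these further lists, none of them in the heterogeneous population. On the ACAN slope 1 of 53 replication genes was called as higher, against 3.64% of all genes. POLD2, a subunit of DNA polymerase delta, rose with ACAN (slope 0.15, SE 0.03, edgeR adjusted p = 0.00997). RFC1, the large subunit of the clamp loader, was 0.96 log2 units higher in clone N (SE 0.18). That clone held most of the calls over all genes in the single-clone fits. RFC1 was at 143 CPM in clone N against a clone median of 64.2 CPM, while RFC4, another subunit of that loader, was not among the called genes.

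Of 21 genes that brake the cycle, 3 placed clones C, G, L and O on top, namely CDKN2D, RBL1 and E2F4, a share near the 11.5% of all 11477 genes, and 1 placed them at the bottom, where 2.27% of all 11477 genes do. That gene was CDKN2B, which encodes the p15 inhibitor of CDK4 and CDK6, at 28.5 to 39.5 CPM in the 4 clones and 65.7 to 178 CPM in the other 13, named here after its values were seen. The largest SD among brakes was that of CDKN1C, the p57 inhibitor, at 0.207 CPM in clone Q, a median of 1.14 CPM and 18.98 CPM in clone D. The heterogeneous population had 35.4 CPM of CDKN1C, above every clone, and the difference from the clones did not pass an adjusted p of 0.05. TXNIP (1.09) and CDKN2C (0.86) had the next largest SDs. Over ACAN, CDKN2D (slope 0.23, SE 0.06, adjusted p = 0.0203) and CDKN1B (0.11, SE 0.03, adjusted p = 0.0446) rose and GADD45A (-0.31, SE 0.08, adjusted p = 0.034) fell, all by edgeR. These were 2 and 1 of the 21 brakes, where 3.64% of all genes were called as rising and 2.45% as falling.

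Of 12 genes of G1 with reads, CDK2, CDK4 and ID1 placed the 4 clones on top, where 11.5% of all 11477 genes did. ID1, an inhibitor of differentiation factors, had the largest SD of this list (1.35), from 2.18 CPM in clone D over a median of 9.44 CPM to 61.0 CPM in clone O, with 1.24 CPM in the heterogeneous population. FOS (1.27) and EGR1 (0.95), immediate early genes, followed. CCND1, cyclin D1, and CDK6, its kinase partner, rose with ACAN (slopes 0.17, SE 0.05, and 0.10, SE 0.03, with edgeR adjusted p = 0.0337 and 0.0357). They were 2 of 12 G1 genes tested, where 3.64% of all genes were called as rising. CCND1 was at 58.4 CPM in the heterogeneous population, below every clone, the lowest of which was M with 110 CPM.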

How the data were processed

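Poly(A) RNA of 17 clones and 1 heterogeneous population was sequenced as single-end reads. The authors aligned them with STAR (2.3.0e in the submitters' processing notes) to bosTau7 and deposited HTSeq read counts per RefSeq gene, not normalized, with 5 tally lines that were left out here (reads outside genes were 18.8 to 26.8%). Strand use in counting is not given in the sources used here. CPM was computed from reads on genes, and 0.25 was added before taking log2. Group comparisons used edgeR 4.0.16 (TMM scaling, filterByExpr, quasi-likelihood F-test, R 4.3.3), with Benjamini-Hochberg adjustment and a threshold of 0.05. All 18 libraries entered the comparison of the heterogeneous population, and the 17 clones the others. DESeq2 1.42.0, other scalings, no filter and left-out clones were the alternatives. The tests were checked on simulated counts drawn with the spread typical of genes at the same level. The members varied more than most genes, so that check does not show how often changes in them would be found. Correlations and their permutations were computed with numpy 2.4.6, with ranks from scipy 1.17.1. Members and lists were chosen with earlier results of these data known. Genes given with values are the pair genes, the 3 members of largest and of smallest SD in each set with at least 10 reads in every clone, called genes, the 3 genes of largest SD per list, and the 10 genes most like each set, other members being given by range or where stated. Correlations were planned over 17 clones and are given over 13 because the other 4 stand apart. Promoter sequence was not analysed here. Read counting covers counting error only.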

Additional observations from a re-analysis of the deposited data

How the results depend on the processing

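No paired analysis was possible because the labels carry clone letters and no replicate numbers, and the mixed population has 1 library. No member was called under any scaling, filter, tool or left-out clone that was tried. The number of all genes called moved with the tool. DESeq2 called 88 in place of 145 genes in the heterogeneous population, 1182 in place of 684 on the ACAN slope and 406 in place of 90 over the single-clone fits. Leaving out 1 clone at a time gave 137 to 155 genes for the heterogeneous population and 335 (without N) to 1322 (without H) for the slope, with 433 without E and 432 without Q. Leaving out 1 clone, the heterogeneous population was below every remaining clone for 7 to 11 replication genes, 11 without M, and 17 to 19 mitosis genes. With TMM-scaled CPM these counts were 9 and 17, and clones C, G, L and O stayed on top for 15 and 19 genes. For the left-out clones and the TMM-scaled CPM the matching shares of all genes were not counted. Scaling by library totals in edgeR moved the median of all genes by up to 0.22 log2 units (clone L). The 6 pairs with a relation, and the relation of the set means (r = 0.93, a description, 0.902 to 0.945 leaving out 1 clone), kept their sign and side of the threshold in all settings. The 4 pairs without one turned negative with TMM-scaled CPM, at -0.257 and -0.275 for MKI67 and MCM6 with CDKN1A and -0.0648 and -0.00801 with ACAN, none past the threshold. Over all 17 clones, as first planned, the pairs with CDKN1A gave -0.527 (permutation, adjusted p = 0.0361) for MKI67 and -0.55 (permutation, adjusted p = 0.0302) for MCM6. Leaving out 1 clone, they ranged from -0.185 to 0.187 and from -0.041 to 0.267, and those with ACAN from -0.158 to 0.272 and from -0.0348 to 0.434. The restriction to 13 clones, the TMM-scaled counts of clones and the left-out clones for the heterogeneous population were chosen after seeing the data. Depth limits CDC6 most, which had 13 reads in its lowest clone.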

Other observations

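The genes outside the lists whose levels ran closest to the members were found by their Pearson r over the 17 clones with the mean deviation of each set, among 10493 genes with a mean CPM of at least 1. These r values are descriptions, and the step between clones C, G, L and O and the others contributes to all of them. Closest to the mitosis genes were CCNF (r = 0.995), which encodes cyclin F, SHCBP1 (0.995), PRR11 (0.990), FANCD2 (0.990), LMNB1 (0.990), CEP72 (0.989), BRCA1 (0.988), FAM64A (0.987), IQGAP3 (0.986) and KPNA2 (0.986). Over the 13 clones without C, G, L and O their r lay between 0.952 (KPNA2) and 0.987 (SHCBP1). CCNF was at 3.20 CPM in its lowest clone, a median of 10.2 CPM and 76.8 CPM in its highest, with 2.11 CPM in the heterogeneous population.

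Closest to the replication genes were LMNB2 (r = 0.995), which encodes lamin B2, TICRR (0.992) and CLSPN (0.990), both of which act at origins or forks, LMNB1 (0.988), CENPT (0.988), EXO1 (0.987), BRCA1 (0.986), DNMT1 (0.986), HMGB1 (0.985) and EZH2 (0.985). Over the 13 clones their r lay between 0.934 (HMGB1) and 0.988 (LMNB2). LMNB1 and BRCA1 were in both lists of 10. LMNB2 was at 33.2 CPM in its lowest clone, a median of 61.6 CPM and 309 CPM in its highest, with 27.7 CPM in the heterogeneous population. DNMT1, the maintenance DNA methyltransferase, had the smaller range of 52.0 to 228 CPM, and its 63.9 CPM in the heterogeneous population lay within the range of the clones.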
